A study of Mus musculus with 12 samples.

Results

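Genes that mark pulmonary neuroendocrine cells were followed through late lung development, 8 in number: *Calca*, *Chga*, *Chgb*, *Insm1*, *Syp*, *Resp18*, *Ddc* and *Scg5*. These 8 genes were chosen by symbol from the 51825 genes with deposited CPM values (reads of a gene scaled to the mapped reads of its library), and all 8 had reads in these lungs. RNA of whole lungs from C57BL/6 mice of both sexes, with no treatment or engineered allele named in the labels, was sequenced at 2 embryonic days (E15.5 and E18.5) and at postnatal days 5 (P5) and 8 (P8). Each time-point had 3 replicates, which gave 12 libraries of between 48436716 and 62279460 mapped reads. Each time-point was 1 litter, so litter and age cannot be told apart.

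Pulmonary neuroendocrine cells are rare sensory cells of the airway epithelium that sit alone or in innervated clusters called neuroepithelial bodies. They are among the first cell types of the airway epithelium to differentiate, and they store peptides and amines in dense-core granules that are released in response to stimuli such as low oxygen. The 8 genes cover the parts of this machinery: INSM1 is a zinc-finger transcription factor of endocrine cells, *Calca* encodes the precursor of calcitonin and of the peptide CGRP, chromogranins A and B (*Chga*, *Chgb*) and the products of *Scg5* and *Resp18* are proteins of the regulated secretory pathway, synaptophysin (*Syp*) is a membrane protein of small secretory vesicles, and *Ddc* encodes the decarboxylase that makes serotonin and dopamine. Several are also used by neurons and by endocrine organs.

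The promoters of the granule cargo genes are shown here because *Chga*, *Chgb*, *Calca* and *Resp18* did not follow one time course in the lung. The windows run from 250 bases before to 50 bases after the RefSeq start (GRCm38.p6), 5′ to 3′ on the strand of the gene. For *Chga* and *Chgb* this start differs from that of the gene position given below, which is from GENCODE. The *Chgb* window lies wholly inside its GENCODE position (from 132781278). The GENCODE start of *Chga* (102554969) lies after the TATAAA match. Capitals mark matches to CAGCTG, an E-box of the kind that basic helix-loop-helix transcription factors can bind, TGACGTCA, the cyclic AMP response element, and TATAAA, the TATA box, each searched on both strands.
Chga promoter, chr12:102554691-102554990, plus strand: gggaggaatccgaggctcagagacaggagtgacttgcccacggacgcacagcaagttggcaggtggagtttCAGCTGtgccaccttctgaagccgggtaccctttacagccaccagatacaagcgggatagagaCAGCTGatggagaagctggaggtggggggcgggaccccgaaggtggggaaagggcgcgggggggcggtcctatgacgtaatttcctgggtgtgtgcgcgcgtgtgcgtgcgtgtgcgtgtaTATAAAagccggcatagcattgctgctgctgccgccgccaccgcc
Chgb promoter, chr2:132781392-132781691, plus strand: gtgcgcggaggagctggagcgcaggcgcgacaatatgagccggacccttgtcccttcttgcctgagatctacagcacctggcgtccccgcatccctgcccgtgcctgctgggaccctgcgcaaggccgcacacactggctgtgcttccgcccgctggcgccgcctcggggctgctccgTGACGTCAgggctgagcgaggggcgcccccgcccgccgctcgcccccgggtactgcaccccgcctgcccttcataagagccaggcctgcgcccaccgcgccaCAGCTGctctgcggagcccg
Calca promoter, chr7:114636308-114636607, minus strand: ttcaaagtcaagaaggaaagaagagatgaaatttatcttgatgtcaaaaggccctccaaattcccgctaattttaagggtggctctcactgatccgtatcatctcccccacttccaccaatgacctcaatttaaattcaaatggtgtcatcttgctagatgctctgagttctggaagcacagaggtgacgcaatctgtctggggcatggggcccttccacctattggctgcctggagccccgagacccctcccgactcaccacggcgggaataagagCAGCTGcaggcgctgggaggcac
Resp18 promoter, chr1:75278366-75278665, minus strand: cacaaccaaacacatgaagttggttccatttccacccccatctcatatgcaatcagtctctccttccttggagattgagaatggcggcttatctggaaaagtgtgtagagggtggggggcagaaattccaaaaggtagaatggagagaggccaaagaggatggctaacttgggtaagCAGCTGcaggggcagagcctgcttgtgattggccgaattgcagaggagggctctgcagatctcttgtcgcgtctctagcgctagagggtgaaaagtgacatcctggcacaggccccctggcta
The *Chga* window held CAGCTG at 179 and 116 bases before the start and TATAAA at 5 bases after it. The *Chgb* window held TGACGTCA at 72 bases before and CAGCTG at 30 bases after the start. *Calca* held CAGCTG at 27 bases after and *Resp18* at 73 bases before the start. Among 32851 promoter windows of this length, CAGCTG was found in 16.3%, TGACGTCA in 1.79% and TATAAA in 13.6%. The windows printed are the ones of the members that held CAGCTG, so they cannot be set against the 16.3%. Windows were available for 7 of the 8 genes (8 windows, since *Ddc* has 2), and the *Syp*, *Scg5* and second *Ddc* windows held none of these letters while the first *Ddc* window held TATAAA at 68 bases before the start.

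The level of these genes in whole lung was low. Per kilobase of exon, *Ddc* was the most abundant with a mean of 2.75 CPM per kb over the 12 libraries. *Calca* (0.376), *Syp* (0.322), *Insm1* (0.299) and *Scg5* (0.297) followed at close levels, and *Resp18* (0.190), *Chga* (0.139) and *Chgb* (0.129) were the lowest on the same scale. *Ddc* was represented by 8149 reads over all libraries and *Resp18* by 131. A library in which no read was found can still hold up to 3 reads' worth of the gene, or 0.0482 to 0.0619 CPM depending on the library, and this floor covers counting error only. Only *Insm1*, *Syp* and *Ddc* reached 1 CPM in at least 3 libraries and entered the test of the 15994 expressed genes. The other 5 genes were tested in a second, wider fit of the 25809 genes with at least 10 reads in total, in which all 8 genes could be tested.

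Of the 12 libraries, 4 stood apart in genes of neighbouring organs, and this touches several results below. The summed level of 8 heart genes was 861 and 980 CPM in E15.5 replicates 1 and 2 against 30.5 CPM in replicate 3, and the summed level of 10 thymus genes was 205 and 392 CPM in P8 replicates 1 and 2 against 23.6 CPM in replicate 3. E15.5 replicate 2 also had thymus genes at 36.7 CPM, against 4.81 and 5.64 CPM in the other two. All 8 heart genes and 9 of the 10 thymus genes had a mean of at least 1 CPM, and genes of Schwann cells followed the thymus genes at P8, with a summed 144 and 164 CPM in replicates 1 and 2 and 56.4 CPM in replicate 3. For many of the results that use these libraries, the value without them is given as well. Leaving them out leaves 1 library each at E15.5 and P8, which is then assumed to vary like the other libraries. It does not remove heart genes from the libraries kept. Their summed level was 103, 235 and 154 CPM at P5 and 92.5 CPM in P8 replicate 3, against 29.2 to 59.6 CPM at E18.5. P8 replicate 2, set apart by thymus genes, also had 306 CPM of heart genes.

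**Figure D1:**
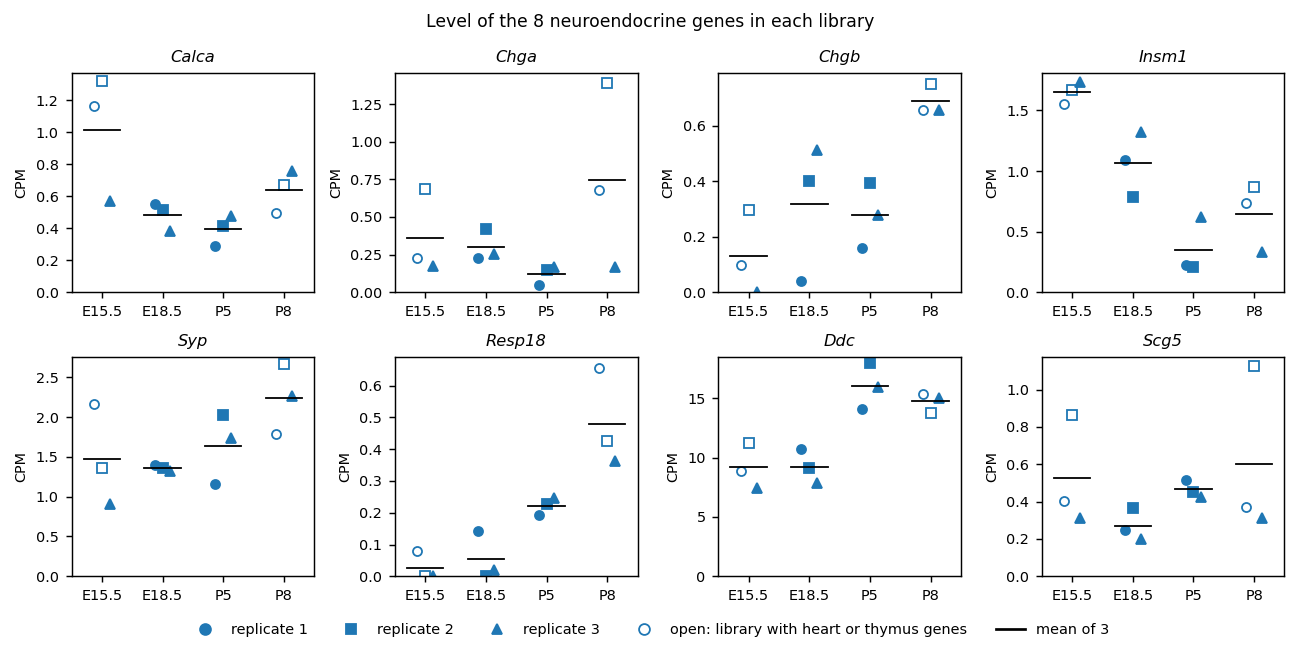
Level in CPM (linear axis from 0) of each of the 8 genes at the 4 time-points; each point is a library, its shape the replicate number, and the line the mean of 3. Open points are E15.5 replicates 1 and 2 and P8 replicates 1 and 2, which stood apart in heart or thymus genes. *Insm1* is highest in the E15.5 libraries and *Ddc* higher in all postnatal than in all embryonic libraries, while the highest *Chga* value is the open square at P8 (1.39 CPM).

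*Insm1* fell from the embryonic lung to P5, and *Resp18* and *Chgb* rose from E15.5 to P8. *Ddc* rose from the embryonic lung to P5 past the FDR cutoff but under the fold cutoff. *Syp* did so from E18.5 to P8 among expressed genes. *Ddc*, *Syp* and *Scg5* were not past both cutoffs in any comparison of all 12 libraries. *Calca* and *Chga* were each called in 1 comparison, and neither call was kept without the 4 libraries. To be called, a gene had to pass 2 cutoffs, a log2 fold change of more than 1 in either direction and an edgeR FDR (Benjamini-Hochberg, over all genes tested) under 0.05. From E18.5 to P5, 1 of the 3 members tested among expressed genes was called (*Insm1*), where 26.8% of all expressed genes were, and in the wider fit 1 of 8 (*Insm1*) against 20.9%. From E15.5 to E18.5 none was called by edgeR in either fit, against 3.04% and 2.12% of genes. In that comparison 0 of 3 and 1 of 8 had an unadjusted p under 0.05, and DESeq2 also called 0 in both fits. From P5 to P8, 0 of 3 were called in the fit of expressed genes, where 0 had an unadjusted p under 0.05, DESeq2 called 0 and 2.96% of all genes were called. In the wider fit 1 of 8 was called (*Chga*) against 2.13%.

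Over the longer intervals, *Insm1* was the only one of the 3 members called among expressed genes when E15.5 was set against P5 (31.8% of all genes) or P8 (32.3%). Between E18.5 and P8 edgeR called 0 of 3 (29% of all genes), with 2 of 3 at an unadjusted p under 0.05 and 0 called by DESeq2. The wider fit called 3 of 8 between E15.5 and P5 (*Calca*, *Insm1*, *Resp18*; 25% of all genes), 3 of 8 between E15.5 and P8 (*Chgb*, *Insm1*, *Resp18*; 26.5%) and 1 of 8 between E18.5 and P8 (*Resp18*; 24.3%). These comparisons share libraries with each other. Over the whole time course, 2 of 3 members differed between time-points at FDR under 0.05 among expressed genes (84.8% of all) and 5 of 8 in the wider fit (58.5% of all). Without the 4 libraries, the wider fit called 0 members from P5 to P8, where 0.508% of all genes were called. Members called between E18.5 or E15.5 and P8 are not counted for that setting. It has 1 library at each of E15.5 and P8, and *Chgb* and *Resp18* have 0 reads in that E15.5 library. The median log2 fold change of the 8 members in the wider fit was 0.11 from E18.5 to P5, beside 0.065 over all genes tested. From P5 to P8 it was 0.75, beside 0.0093. The latter includes P8 replicates 1 and 2, with their thymus genes, and no median without them is given. For the 3 members among expressed genes, the P5 to P8 values were 0.84 (*Insm1*), 0.44 (*Syp*) and -0.13 (*Ddc*). Without the 4 libraries these were -0.14, 0.45 and -0.11.

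*Insm1* (ENSMUSG00000068154.5, GRCm38 chr2:146221921-146225020, plus strand) was at 1.55, 1.67 and 1.73 CPM in the E15.5 libraries, 1.09, 0.785 and 1.32 CPM at E18.5, then 0.225, 0.206 and 0.625 CPM at P5 and 0.739, 0.866 and 0.329 CPM at P8. Every E15.5 library lay above every E18.5 library, and every E18.5 library above every P5 library, whereas P5 and P8 overlapped. From E18.5 to P5 its log2 fold change was -1.50 (standard error 0.46, edgeR FDR = 0.011), with a range of -2.19 to -1.25 over the 12 fits that left out 1 library and a value of -1.49 without the 4 libraries (FDR = 0.0139). In the wider fit the FDR was 0.014, and it rose to at most 0.0635 without E18.5 replicate 3, P5 replicate 1 or P5 replicate 2. Set against E15.5, the P5 value was -2.12 (standard error 0.46, edgeR FDR = 0.0011). The step from E15.5 to E18.5 (-0.63, edgeR FDR = 0.32) and the one from P5 to P8 (0.84, edgeR FDR = 0.23, and -0.14 with FDR = 0.939 without the 4 libraries) were not past the threshold. From E15.5 to P8 the log2 fold change was -1.28 (edgeR FDR = 0.018), but -0.96 (FDR = 0.059) without P8 replicate 3, the lowest of the P8 libraries, and -2.33 (FDR = 0.026) without the 4 libraries, where replicate 3 is the P8 library that remains. In bulk tissue, a change in the number of cells that express a gene and a change of its RNA per cell cannot be told apart. This holds here and for each gene that follows, and which cell types the reads came from was not measured.

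*Neurod1*, a transcription factor of endocrine cells that is no member of the 8, had 0 reads in every library. Of the 12 genes in the list of transcription factors and Notch ligands, 4 were tested among expressed genes, and from E18.5 to P5 2 were called lower and 1 higher, beside 9.34% and 17.5% of all genes. The one higher was *Dll1*, a Notch ligand, which went from 5.37 ± 1.31 CPM (SD, n = 3) to 12 ± 1.71 CPM (log2 fold change 1.24, edgeR FDR = 2.37e-05).

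*Calca* (ENSMUSG00000030669.13, chr7:114631478-114636357, minus strand) was at 1.16, 1.32 and 0.570 CPM in E15.5 replicates 1, 2 and 3. It was at 0.554, 0.517 and 0.385 CPM at E18.5, then 0.289, 0.413 and 0.477 CPM at P5 and 0.493, 0.670 and 0.756 CPM at P8. The high values at E15.5 were those of the 2 libraries with heart genes, and E15.5 replicate 3 lay just above the highest E18.5 library. In the wider fit *Calca* was lower at P5 than at E15.5 (log2 fold change -1.25, standard error 0.39, edgeR FDR = 0.015). Without the 4 libraries this was -0.45 (FDR = 0.57), and without E15.5 replicate 2 alone or P5 replicate 1 alone the FDR was 0.059 and 0.064. The step from E15.5 to E18.5 (-1.03, edgeR FDR = 0.11) was past the threshold without E15.5 replicate 3 (-1.31, FDR = 0.045) and was -0.23 without the 4 libraries. From P5 to P8 the libraries did not overlap, but the difference of 0.68 was not past the threshold (edgeR FDR = 0.33). The part of the heart tissue in the E15.5 values of *Calca* was not tested.

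**Figure D2:**
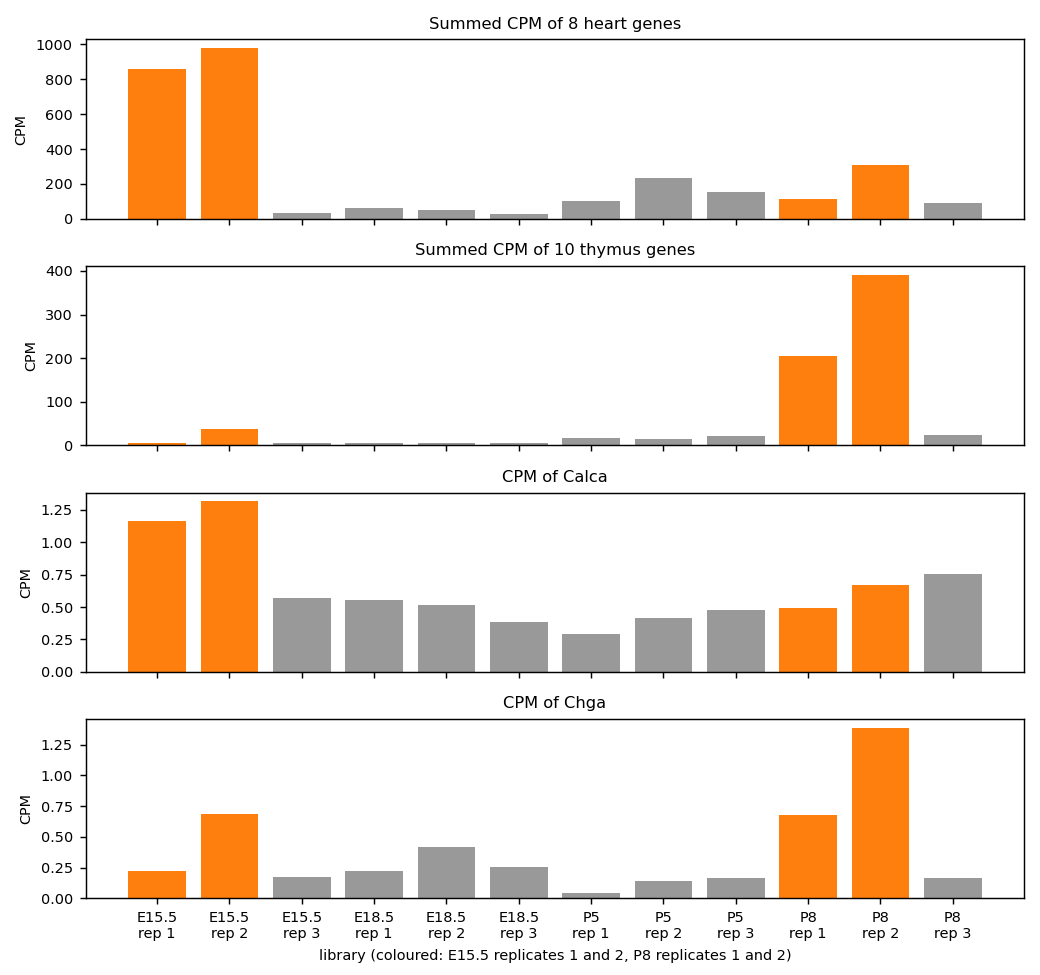
Bars (linear axes from 0) give, in each of the 12 libraries, the summed CPM of 8 heart genes and of 10 thymus genes and the CPM of *Calca* and *Chga*; E15.5 replicates 1 and 2 and P8 replicates 1 and 2 are coloured. The 2 highest *Calca* bars (1.16 and 1.32 CPM) are the 2 libraries with the most heart genes, and the highest *Chga* bar (1.39 CPM) is the library with the most thymus genes (392 CPM).

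The paralog *Calcb*, which encodes a second form of CGRP, followed another course. It had 13, 6 and 2 reads in the E15.5 libraries and 1 read in each E18.5 library, then 51, 41 and 58 reads at P5 and 70, 71 and 79 reads at P8. In CPM it was at 0.819, 0.846 and 0.953 at P5 and 1.44, 1.16 and 1.30 at P8, above every embryonic library, and the change from E18.5 to P5 was past the threshold (edgeR FDR = 2.73e-06). Only 12 stretches of 50 bases were shared by the exons of both genes, which is 0.715% of those in *Calca* and 0.952% of those in *Calcb*. *Grp*, which encodes gastrin-releasing peptide, went from 1.56, 2.93 and 2 CPM at E18.5 to 4.08, 5.99 and 6.26 CPM at P5 (log2 fold change 1.41, standard error 0.24, edgeR FDR = 0.00018). At P8 it was at 3.28, 3.23 and 3.27 CPM, lower than in each P5 library (log2 fold change -0.75, edgeR FDR = 0.046), and the FDR of this step was 0.28 without the 4 libraries. Of the 15 genes in the list of peptides and amine synthesis, 3 were tested among expressed genes, and the 2 called from E18.5 to P5 were *Calcb* and *Grp*, both higher, as were 17.5% of all genes.

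*Chga* (ENSMUSG00000021194.6, chr12:102554969-102565028, plus strand) was at 0.226, 0.688 and 0.177 CPM at E15.5, 0.226, 0.421 and 0.256 CPM at E18.5, then 0.0482, 0.145 and 0.164 CPM at P5 and 0.677, 1.39 and 0.164 CPM at P8. These are 3 to 10 reads per P5 library and 33, 85 and 10 reads in the P8 libraries. P8 replicate 3 was within the P5 range, and the 2 P8 libraries above it were those with thymus genes. The difference from P5 to P8 in the wider fit was 2.60 (standard error 0.77, edgeR FDR = 0.0495). Without the 4 libraries it was 0.45 (FDR = 0.90). It was past the threshold in 3 of the 12 fits that left out 1 library, namely those without E15.5 replicate 2, E15.5 replicate 3 or P8 replicate 3, with the value between 1.81 (FDR = 0.26, without P8 replicate 2) and 3.08.

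The amine synthesis genes *Th* and *Dbh* were also highest in P8 replicate 2. *Th*, which encodes the enzyme for the first step of dopamine synthesis, was at 2.01 CPM in that library and at 0.164 and 0.0493 CPM in P8 replicates 1 and 3. *Dbh*, a gene named after its values were seen, was at 2.79 CPM against 0.349 and 0.214 CPM. The summed level of all 14 genes of neurons and nerves was 82.7 CPM in this library and 67.2 and 82.1 CPM in replicates 1 and 3. Most of this sum came from *Stmn2* and *Gap43*, so it cannot show whether the other genes of the list were higher in this library. The part of thymus or nerve tissue in the *Chga* values was not tested.

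*Chgb* (ENSMUSG00000027350.8, chr2:132781278-132795079, plus strand) had 6, 15 and 0 reads at E15.5 (0.0968, 0.295 and 0 CPM) and 2, 21 and 28 reads at E18.5 (0.0411, 0.402 and 0.513 CPM). It had 10, 19 and 17 reads at P5 (0.161, 0.392 and 0.279 CPM) and 32, 46 and 40 reads at P8 (0.657, 0.751 and 0.657 CPM). All P8 libraries were above all others, and their spread was smaller than that of *Chga*, at 0.689 ± 0.0545 CPM (SD, n = 3). From E15.5 to P8 *Chgb* rose in the wider fit (2.48 on the log2 scale, standard error 0.89, edgeR FDR = 0.030). The FDR passed 0.05 with E15.5 replicate 1 or 3 or P8 replicate 1 or 2 left out (0.089, 0.062, 0.056 and 0.060). Without the 4 libraries the only E15.5 library has 0 reads of *Chgb*, so no value is given for that setting. The difference from P5 to P8 was 1.29 (edgeR FDR = 0.39). The part of thymus or nerve tissue in the *Chgb* values was not tested.

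*Resp18* (ENSMUSG00000033061.15, chr1:75272199-75278415, minus strand) was close to the floor before birth, with 5, 0 and 0 reads at E15.5 and 7, 0 and 1 reads at E18.5. At P5 it had 12, 11 and 15 reads (0.193, 0.227 and 0.247 CPM), and at P8 32, 26 and 22 reads (0.657, 0.425 and 0.362 CPM). Every P5 library lay above every embryonic library and every P8 library above every P5 library. In the wider fit neither the step from E18.5 to P5 (2.11, edgeR FDR = 0.13) nor that from P5 to P8 (1.08, edgeR FDR = 0.55) was past the threshold. From E15.5 to P8 the log2 fold change in the wider fit was 4.04 (standard error 1.13, edgeR FDR = 0.0074), and it was past both cutoffs in all 12 fits that left out 1 library. Its size rests on the 5 reads of E15.5 replicate 1, without which the fitted value was 7.75. Once the 4 libraries are left out, the only E15.5 library has 0 reads of *Resp18*, so no value from E15.5 is given for that setting. From E15.5 to P5 (2.95, edgeR FDR = 0.041) the call was kept in 5 of the 12 such fits, and from E18.5 to P8 (3.19, edgeR FDR = 0.022) in 9 of 12, with FDR = 0.072 without the 4 libraries. The first of these calls was lost without E15.5 replicate 2 or 3, any P5 replicate, or P8 replicate 1 or 2, and the second without E18.5 replicate 2 or 3 or P8 replicate 1. The antisense gene *Gm28902* overlaps *Resp18*, *Gm14703* overlaps *Syp* and *1700042O10Rik* overlaps *Ddc*. Whether the counting used strand is not given in the sources used here, so reads of these pairs cannot be told apart.

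*Scg5* (ENSMUSG00000023236.7, chr2:113776362-113829121, minus strand), which encodes the chaperone of the prohormone convertase PCSK2, was at 0.403, 0.865 and 0.315 CPM at E15.5 and 0.246, 0.364 and 0.201 CPM at E18.5. It was at 0.514, 0.454 and 0.427 CPM at P5 and 0.369, 1.13 and 0.312 CPM at P8. The highest values were those of E15.5 replicate 2 and P8 replicate 2, as for *Chga*, and the P5 libraries lay above the E18.5 libraries. No comparison of *Scg5* was past the threshold in the wider fit, and the nearest was E18.5 to P8 (log2 fold change 1.20, standard error 0.55, edgeR FDR = 0.086). Leaving out the 4 libraries gave 0.26 (FDR = 0.801). E15.5 replicate 2 and P8 replicate 2 were each the highest library of their time-point for 5 of the 8 genes.

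**Figure D3:**
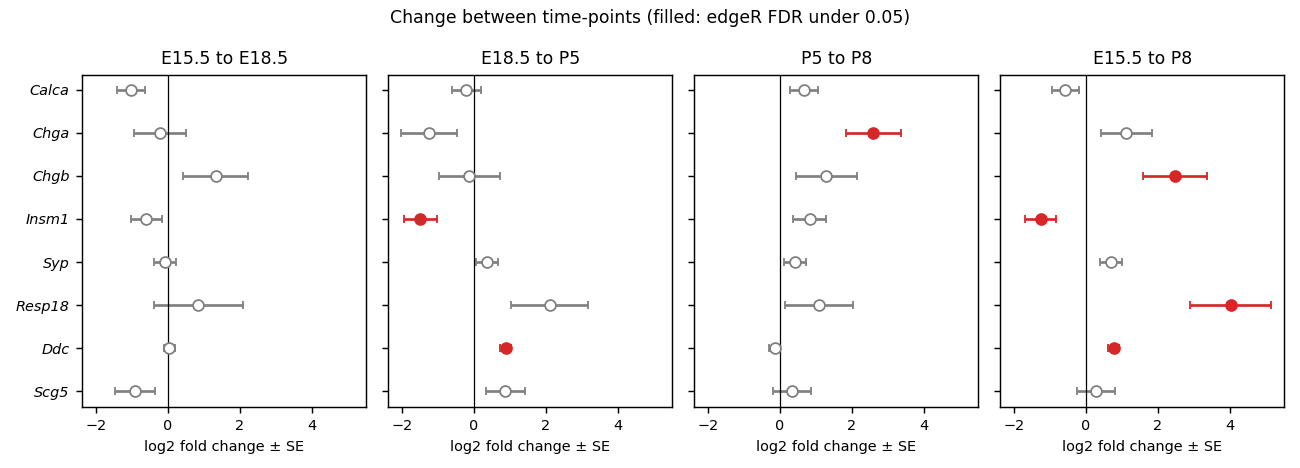
Log2 fold change (x axis) with its standard error for each of the 8 genes in 4 comparisons, all from the edgeR fit of the 25809 genes with at least 10 reads; filled points have FDR under 0.05. *Insm1* lies left of 0 and *Ddc* right of 0 with filled points from E18.5 to P5, and the error bars of *Resp18*, *Chgb* and *Chga* are the widest.

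The list of granule proteins and peptide processing holds genes that many cell types express, such as *Cpe* and *Pam*, beside more restricted ones. Of the 14 genes in this list, 7 were tested among expressed genes, and from E18.5 to P5 4 were called higher and 1 lower, beside 17.5% and 9.34% of all genes. The one lower was *Pcsk1*, the gene of a prohormone convertase, which went from 1.68, 1.23 and 1.06 CPM at E18.5 to 0.546, 0.557 and 0.707 CPM at P5 (log2 fold change -1.04, standard error 0.26, edgeR FDR = 0.0035). At P8 it was at 1.60, 1.37 and 1.61 CPM, a rise of 1.32 (edgeR FDR = 0.0075), and 1.38 (FDR = 0.096) without the 4 libraries. *Ptprn2*, a membrane protein of dense-core granules, rose from 0.786 ± 0.0546 to 2.58 ± 0.663 CPM (SD, n = 3) from E18.5 to P5 (log2 fold change 1.79, edgeR FDR = 2.85e-05). *Pam*, the enzyme that amidates peptides, rose from 132 ± 6.51 to 278 ± 29.3 CPM (1.16, edgeR FDR = 0.0031). Its fall from E15.5 to E18.5 (-1.02, edgeR FDR = 0.026) became 0.16 (FDR = 0.41) without the 4 libraries, and *Pam* was at 312 and 377 CPM in the E15.5 libraries with heart genes and at 118 CPM in the third. *Cpe*, which encodes carboxypeptidase E, rose from P5 to P8 by 1.19 (edgeR FDR = 0.0033), and by 0.91 (FDR = 0.025) without the 4 libraries.

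*Syp* (ENSMUSG00000031144.15, chrX:7638471-7653256, plus strand) was at 2.16, 1.36 and 0.905 CPM at E15.5, 1.40, 1.36 and 1.32 CPM at E18.5, then 1.16, 2.02 and 1.74 CPM at P5 and 1.79, 2.66 and 2.27 CPM at P8. All adjacent time-points overlapped, while the P8 libraries were above the E18.5 libraries. From E18.5 to P8 the log2 fold change was 0.79 (standard error 0.31, edgeR FDR = 0.036), under the fold cutoff, and the FDR was under 0.05 in 6 of the 12 fits that left out 1 library and 0.068 without the 4 libraries. It was over 0.05 without any one of the E18.5 replicates, P5 replicate 3, P8 replicate 2 or P8 replicate 3. The difference between E15.5 and P8 was 0.67 (edgeR FDR = 0.064), and 1.05 (FDR = 0.0083) without E15.5 replicate 1. It was 1.39 (FDR = 0.025) and past both cutoffs without the 4 libraries. *Uchl1*, a ubiquitin hydrolase used to stain these cells, went from 27.6, 27.7 and 32.0 CPM at E18.5 to 7.51, 8.42 and 9.45 CPM at P5 (log2 fold change -1.70, standard error 0.10, edgeR FDR = 2.78e-08). *Ncam1*, a cell adhesion molecule of neural and neuroendocrine cells, fell from 17.1 ± 1.69 to 3.92 ± 0.995 CPM (SD, n = 3; log2 fold change -2.05, edgeR FDR = 9.62e-06). Of the 12 genes in this list, 9 were tested among expressed genes, and from E18.5 to P5 3 were called lower and 0 higher, beside 9.34% and 17.5% of all genes. At FDR under 0.05 alone 6 were lower and 2 higher, where 35.7% and 35.4% of all genes were. The 2 higher, named after their values were seen, were the vesicle gene *Vamp2* (33.0 ± 0.596 to 59.0 ± 4.62 CPM, SD, n = 3) and the mechanosensitive channel gene *Piezo2* (68.9 ± 5.28 to 92.7 ± 3.51 CPM).

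*Ddc* (ENSMUSG00000020182.16, chr11:11814101-11898144, minus strand) was at 8.88, 11.2 and 7.47 CPM at E15.5 and 10.8, 9.09 and 7.82 CPM at E18.5, then at 14.1, 17.9 and 16.0 CPM at P5 and 15.4, 13.8 and 15.0 CPM at P8. All 6 postnatal libraries were above all 6 embryonic libraries. Between E18.5 and P5 it rose by 0.88 on the log2 scale (standard error 0.16, edgeR FDR = 0.00031), which is past the FDR threshold and under the fold cutoff, and the 12 fits that left out 1 library gave 0.77 to 1.01. It was also 0.88 without the 4 libraries. No difference was past the threshold from E15.5 to E18.5 (0.01, edgeR FDR = 0.96) or from P5 to P8 (-0.13, edgeR FDR = 0.59).

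The receptors of neuroendocrine products were measured in the same lungs. CGRP acts through the receptor encoded by *Calcrl* together with the accessory protein RAMP1, while RAMP2 and RAMP3 make the same receptor respond to adrenomedullin, and endothelial and stromal cells of the lung express them. *Calcrl* was at 49.7, 55.7 and 49.9 CPM at E15.5, 125, 119 and 97.9 CPM at E18.5, then 742, 749 and 726 CPM at P5 and 583, 583 and 775 CPM at P8. It rose by 1.14 on the log2 scale from E15.5 to E18.5 (edgeR FDR = 0.00034) and by a further 2.78 by P5 (standard error 0.12, edgeR FDR = 2.86e-09). *Ramp1* went from 2.91, 4.42 and 3.79 CPM at E18.5 to 30.2, 30.1 and 30.5 CPM at P5 (log2 fold change 3.12, standard error 0.26, edgeR FDR = 3.81e-07). *Ramp2* and *Ramp3* rose by 1.17 and 3.59 in the same interval (edgeR FDR = 4.6e-08 and 3.34e-06), and *Slc6a4*, the serotonin transporter, by 1.04 (edgeR FDR = 0.0025).

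All 5 receptor or transporter genes of this list of 11 that were tested among expressed genes were called higher from E18.5 to P5, beside 17.5% of all expressed genes, and the same count of 5 was called without the 4 libraries. The other 6 were below the filter. Among them, *Grpr*, the receptor of gastrin-releasing peptide, was at 0.759, 0.364 and 0.421 CPM at E18.5, then 0.241, 0.165 and 0.0329 CPM at P5 and 0.0616, 0.0163 and 0.0329 CPM at P8. Its level from E15.5 to P8 fell by 2.71 on the log2 scale in the wider fit (standard error 0.85, edgeR FDR = 0.015), while *Grp* rose by 0.93 over the same interval among expressed genes (edgeR FDR = 0.0035). Neither was past the threshold without the 4 libraries, at -2.12 (FDR = 0.293) for *Grpr* and 0.74 (FDR = 0.164) for *Grp*.

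**Figure D4:**
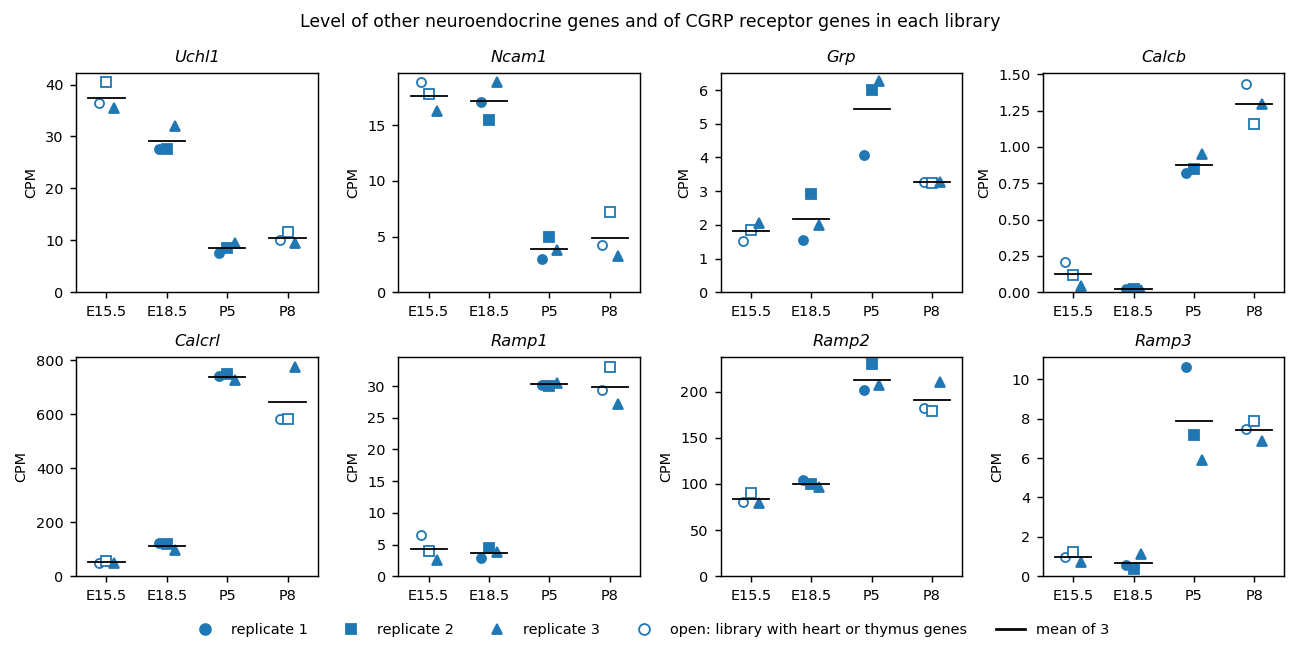
Level in CPM (linear axis from 0) of *Uchl1*, *Ncam1*, *Grp*, *Calcb* and of the CGRP and adrenomedullin receptor genes *Calcrl*, *Ramp1*, *Ramp2* and *Ramp3*; points are libraries, shapes the replicate numbers, lines the means of 3, and open points the libraries with heart or thymus genes. *Uchl1* and *Ncam1* are lower in all P5 than in all E18.5 libraries, and the other 6 genes are higher.

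The labelled tissue was checked by 8 genes of lung epithelium, whose summed level was 746 to 1110 CPM in all 12 libraries, with all 8 at a mean of at least 1 CPM. *Epcam*, a surface protein of epithelial cells, fell from 209 ± 4.75 to 63.8 ± 4.22 CPM (SD, n = 3) from E18.5 to P5 (log2 fold change -1.62, edgeR FDR = 1.04e-09). In that interval 1 of the 8 epithelial genes was called lower and 0 higher, beside 9.34% and 17.5% of all genes. At FDR under 0.05 alone 5 were lower and 1 higher, beside 35.7% and 35.4%. The part of the *Epcam* change in the fall of *Insm1*, *Ncam1* and *Uchl1* was not tested.

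Among 14 genes of neurons and nerves, 8 were tested among expressed genes, and from E18.5 to P5 3 were called higher and 2 lower, beside 17.5% and 9.34% of all genes. *Stmn2*, a tubulin-binding protein, rose from 8.49 ± 0.904 to 59.7 ± 1.53 CPM (SD, n = 3; log2 fold change 2.90, edgeR FDR = 1.18e-07), and *Gap43*, a growth cone protein, from 6.39 ± 1.08 to 17.6 ± 1.65 CPM (1.55, edgeR FDR = 1.84e-05). *Nefm*, a neurofilament, fell from 1.82 ± 0.946 to 0.192 ± 0.0974 CPM (-3.17, edgeR FDR = 0.00098) and *Elavl4*, a neuronal RNA-binding protein, from 0.887 ± 0.0111 to 0.150 ± 0.0224 CPM (-2.45, edgeR FDR = 0.00021). From P5 to P8 *Elavl4* rose by 1.54 (edgeR FDR = 0.030) and *Tubb3*, the neuronal tubulin, by 2.51 (edgeR FDR = 0.040), and without the 4 libraries these were 0.57 (FDR = 0.63) and 0.23 (FDR = 0.90).

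Of 8 Schwann cell genes, 5 were tested and 3 were called higher from P5 to P8 (2.88% of all genes), among them *Sox10* (3.07, edgeR FDR = 0.012), and without the 4 libraries 0 of 5 were called. Of 10 thymus genes, 9 were tested and 7 were called higher from P5 to P8 with all libraries (2.88% of all genes). Of 8 heart genes, all tested, 7 were called as falling from E15.5 to E18.5 (1.46% of all genes). The 4 libraries were set apart by these same heart and thymus genes, so leaving them out is no test of these calls. Genes of endocrine organs were low, as were the 8 members. The summed level of 6 thyroid and parathyroid genes was 0.613 to 2.59 CPM over the 12 libraries and that of 6 adrenal genes 2.11 to 6.48 CPM. *Tg*, the thyroglobulin gene, rose from 0.124 ± 0.120 to 0.809 ± 0.326 CPM (SD, n = 3) from E18.5 to P5 (log2 fold change 2.73, edgeR FDR = 0.0023). It was the 1 gene of its list that was tested among expressed genes. Of the adrenal genes 2 were tested, and 1 was called higher in that interval, beside 17.5% of all genes. The part of such tissue in the values of the members was not tested.

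Genes whose pattern over the 12 libraries was most like that of each member were listed by Pearson r of log2 CPM, as a description, since libraries of a time-point share age and litter. For *Ddc* these were *BC031181* (0.975), *Vmac* (0.971) and *Adrb3* (0.971), and for *Insm1* *Hoxc4* (0.956), *Pgr* (0.954) and *Dusp2* (0.954). For *Resp18* they were *Tbc1d22a* (0.958), *1810008I18Rik* (0.948) and *Fbxo32* (0.945). For *Calca* the most alike gene was *Gata4* (0.900), a transcription factor of the heart and of lung mesenchyme, followed by *Cacna2d2* (0.889) and *Cars2* (0.866). For *Chga* it was *Coq9* (0.954), followed by *Prss16* (0.930), which encodes a serine protease of the thymus, and *Echs1* (0.915). The best r was 0.889 for *Syp* (*Lrrc56*), 0.878 for *Chgb* (*Rwdd3*) and 0.835 for *Scg5* (*Il2ra*), and no other member was among the 3 genes listed for any of the 8.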

How the data were processed

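RNA of whole lungs was sequenced at 4 time-points in triplicate. The authors aligned reads to mm10 with TopHat2 (version 2.1.1) and Bowtie2 (2.3.4), counted them per Gencode gene with HTSeq (0.10.0) and deposited raw counts of 16152 expressed genes, and CPM of 51825 genes in which counts were divided by all mapped reads. The deposited splicing table holds percent spliced-in values by event identifiers that could not be tied to these genes, and it was not used.

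The deposited counts summed to 41337443 to 53901957 per library. Of the CPM values, 100.0% were whole multiples of 1 read (tolerance 0.01 reads), and none differed from the counts of the shared genes. edgeR (4.0.16, R 4.3.3) quasi-likelihood tests with TMM were fitted to all 12 libraries, on the counts of 15994 genes with at least 1 CPM in 3 libraries and on recovered reads of 25809 genes with at least 10 reads in total. The second fit was added after seeing the data, since 5 of 8 genes were under the filter (4 of them are not in the counts table). DESeq2 (1.42.0) was an alternative. Both fits were tested on simulated data in which only genes of higher counts were changed, so that test does not cover the members with few reads. The members and the 12 other gene lists were chosen with earlier results of these data known. Named genes were all members, fixed genes of each list, and up to 4 more per list with the largest change among those called between adjacent time-points at a mean of at least 1 CPM. Since replicates are litter mates, p-values measure the spread within litters. Positions and exon lengths are from GENCODE M21 on GRCm38 (mm10). Some genes that the naming rule gives are not reported here.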

Additional observations from a re-analysis of the deposited data

How the results depend on the processing

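Among the expressed genes (members *Insm1*, *Syp* and *Ddc*), FDR under 0.05 alone in place of both cutoffs gave 2 members instead of 1 in E18.5/P5, in E15.5/P5 and in E15.5/P8, and 2 instead of 0 in E18.5/P8. Of all expressed genes, 71.1%, 75.1%, 76.3% and 73.7% were past that cutoff in these comparisons, in the same order. No filter on low counts and a minimum of 10 counts in every library of a time-point each gave 2 members from E15.5 to P5, where 1 was called, since *Calca* could then be tested. Leaving out 1 library in turn gave 1 to 2 members in E18.5/P5, 1 to 2 in E15.5/P5 and 0 to 2 in E15.5/P8 (0 without P8 replicate 3). Leaving out the 4 libraries with heart or thymus genes, chosen after seeing the data, moved *Ddc* over the fold cutoff in E15.5/P5 (1.18) and E15.5/P8 (1.07). It did so for *Syp* in E15.5/P8 (1.39), and *Insm1* stayed past the fold cutoff in both. Other scalings and DESeq2 left the counts of members called as they were.

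In the fit of all genes with reads, also chosen after seeing the data, the single call from P5 to P8 (*Chga*) became 0 with library size only, with only the 2 time-points' libraries and without the 4 libraries. Without the 4 libraries, counts for the other comparisons that use E15.5 or P8 are not given. FDR alone gave 2 of 8 in E18.5/P5 (46.7% of all genes), 4 in E15.5/P5 (50.4%), 4 in E15.5/P8 (52.4%) and 2 in E18.5/P8 (50.6%). In that setting E15.5 and P8 have 1 library each, and *Chgb* and *Resp18* have 0 reads in the E15.5 library that remains when the 4 are left out. Leaving out 1 library gave 0 to 1 in E15.5/E18.5, 0 to 2 in E18.5/P5, 0 to 1 in P5/P8, 1 to 3 in E15.5/P5, 1 to 3 in E15.5/P8, 0 to 3 in E18.5/P8 and 2 to 5 over time. Of the values of single genes under all alternatives, 1176 stayed on their side of the threshold, 48 lost it and 18 gained it, and none that was called changed sign. Leave-one-out fits leave 2 libraries at a time-point, and the share of all genes called in them is not given. Their ranges show how the counts move, not how the members compare with other genes. With 131 to 606 reads in total for 6 of the 8 genes, counting error limits their values.

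Replicate numbers are shared between time-points but mark no common animal, and same-number deviations correlated between -0.363 and 0.288, with 3 of 18 pairs over 0.1, so the numbers do not pair the samples. With the replicate number as a block, the wider fit called 0 members from P5 to P8 in place of 1 and 3 over time in place of 5, and the other counts of members were the same.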
